A study of Mus musculus with 8 samples.

Results

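When fibroblasts were reprogrammed, some stretches of chromatin with a peak of accessibility in embryonic stem cells (ESCs) and none in the fibroblasts already had one at day 5 and had one again at day 10. Such sites are described here. They were selected on the 4 deposited ATAC-seq peak lists: peaks within 400 bp of each other were merged into regions, and a region was kept when it held a peak in the lists of both days and of ESCs and no peak in mouse embryonic fibroblasts (MEFs). There were 2350 such regions among 101701 merged regions. They made up 8.14% of the 28863 ESC regions without a MEF peak (95% Wilson interval 7.83% to 8.46%) and 25.2% of the 9318 regions that were open on both days without a MEF peak (24.3% to 26.1%).

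ATAC-seq marks accessible DNA by the insertion of sequencing adapters by a transposase. The 8 libraries, 2 per group, were all of wildtype genotype. MEFs and the cells at both days were of the strain C57BL/6J-OG2, which carries a green fluorescent reporter driven by Pou5f1 sequence. ESC replicate 1 was labelled C57Bl6J and ESC replicate 2 C57BL/6J-OG2. The cells at day 5 and day 10 were MEFs infected with retroviruses for Pou5f1 (OCT4), Sox2, Klf4 and Myc (OSKM). They also received a FLAG control vector, and their ESC medium contained vitamin C. The labels place ESCs on feeder cells, while the study's methods describe ESCs on gelatin in 2i/L medium, so that cell type and medium cannot be told apart in the ESC list. Each group had 1 list for both libraries, which left no replicate values. In bulk samples, opening in a few cells and weak opening in many cannot be told apart. The lists held 35226 to 56514 peaks, the longest being that of MEFs. The number of reads was not given, so the depth is unknown, and every interval covers counting error only and treats regions as independent.

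OCT4 and SOX2 bind DNA as partners, often at a composite of a SOX word and an octamer, and both can bind to sites wrapped in nucleosomes. KLF4 binds GC-rich CACC-type words and MYC binds E-boxes. ESRRB and TFCP2L1 belong to the network of factors that maintains naive pluripotency, and AP-1, TEAD and RUNX factors are active at fibroblast enhancers. During reprogramming, fibroblast enhancers close, epithelial genes are switched on early and much of the pluripotency network late.

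Only 5 of the 2350 regions held the SOX-octamer composite within 100 bp of the midpoint of the ESC peak, and all 5 are shown because this is the site at which OCT4 and SOX2 bind together. Each line names the closest protein-coding gene by start site and 120 bases of the plus strand of mm10 (GRCm38), with the composite in capitals. In the region assigned to Rpl10-ps3 the match lies on the minus strand.
Speer2, chr16:69951773-69951892: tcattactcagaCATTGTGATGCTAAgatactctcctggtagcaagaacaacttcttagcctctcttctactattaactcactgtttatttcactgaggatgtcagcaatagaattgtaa
Tjp1, chr7:65454315-65454434: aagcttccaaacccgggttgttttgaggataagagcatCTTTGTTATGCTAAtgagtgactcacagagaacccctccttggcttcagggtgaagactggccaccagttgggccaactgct
Flt3, chr5:147379566-147379685: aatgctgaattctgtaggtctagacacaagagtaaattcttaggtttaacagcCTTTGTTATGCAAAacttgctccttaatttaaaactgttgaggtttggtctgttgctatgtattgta
Rpl10-ps3, chr9:50124331-50124450: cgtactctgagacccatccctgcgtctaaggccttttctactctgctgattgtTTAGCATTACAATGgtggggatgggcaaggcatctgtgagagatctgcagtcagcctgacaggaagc
Fam122c, chrX:53283265-53283384: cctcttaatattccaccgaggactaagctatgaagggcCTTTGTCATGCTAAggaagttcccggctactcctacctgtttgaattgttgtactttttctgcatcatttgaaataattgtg
The regions at Tjp1, which encodes a tight junction protein, and at Flt3, a receptor tyrosine kinase, lie in introns of these genes, and that at Fam122c lies in an intron too. Those at Speer2 and Rpl10-ps3 were intergenic, 87665 and 220197 bp from the start site. The stretch at Tjp1 also held an AP-1 word.

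A region with many KLF words is shown because it differs in kind from the composite sites. Capitals mark the words CCACACCC and CCACGCCC.
Ttc28, chr5:111239386-111239505: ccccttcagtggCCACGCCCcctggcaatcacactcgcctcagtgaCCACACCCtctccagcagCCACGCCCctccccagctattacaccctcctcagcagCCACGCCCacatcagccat
This stretch in an intron of Ttc28 held 4 words within 120 bases.

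A further set was chosen after the values were seen: for each list of genes described further on, the region within 50 kb of a listed gene with the highest mean fold rank among those with an octamer, SOX or KLF word, and the region of Lefty1, which was the only one with an octamer. Each line gives 60 bases with the first such word in capitals. The naive pluripotency factors and the surface markers had no such region.
Lefty1, chr1:180933983-180934042: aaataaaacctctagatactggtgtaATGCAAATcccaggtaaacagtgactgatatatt
Dsp, chr13:38109192-38109251: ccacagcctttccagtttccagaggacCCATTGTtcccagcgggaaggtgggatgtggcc
Tet2, chr3:133524729-133524788: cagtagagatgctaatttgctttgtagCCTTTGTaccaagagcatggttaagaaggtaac
Tcf7l1, chr6:72795185-72795244: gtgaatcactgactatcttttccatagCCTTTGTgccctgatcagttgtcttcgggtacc
Tdh, chr14:63501092-63501151: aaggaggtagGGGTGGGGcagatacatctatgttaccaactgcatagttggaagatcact
Fn1, chr1:71673584-71673643: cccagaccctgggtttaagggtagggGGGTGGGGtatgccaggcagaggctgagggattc
Otx2, chr14:48709817-48709876: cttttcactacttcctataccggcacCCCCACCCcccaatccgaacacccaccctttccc
The capitals are the octamer ATGCAAAT at Lefty1, the SOX words CCATTGT or CCTTTGT at Dsp, Tet2 and Tcf7l1, and a KLF word at Tdh, Fn1 and Otx2, read on the minus strand at Tdh and Fn1. A match is a description of letters and not evidence of binding.

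The regions had a median width of 947 bp (274 to 3411 bp) and covered 2.49 Mb. The values that follow come from the lists that chose the regions and are given without a test. The median fold enrichment over background was 3.88 (quartiles 3.33 to 4.56) at day 5, 3.45 (3.06 to 3.94) at day 10 and 3.68 in ESCs (3.15 to 4.39). Because the lists differ in scale, each peak was also ranked within its list, where 0 is the weakest and 100 the strongest. The median percentile was 57.3 at day 5, 54.9 at day 10 and 59.3 in ESCs, so the regions stood somewhat above the middle of all 3 lists. ESC regions open at day 5 only had a median percentile of 31.0 in the day 5 list, ESC regions first open at day 10 had 28.4 in the day 10 list, and ESC regions open on neither day had 44.0 in the ESC list. These medians come from the lists that defined the classes, in which a peak near the calling limit on one day can be missed on the other.

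**Figure D1:**
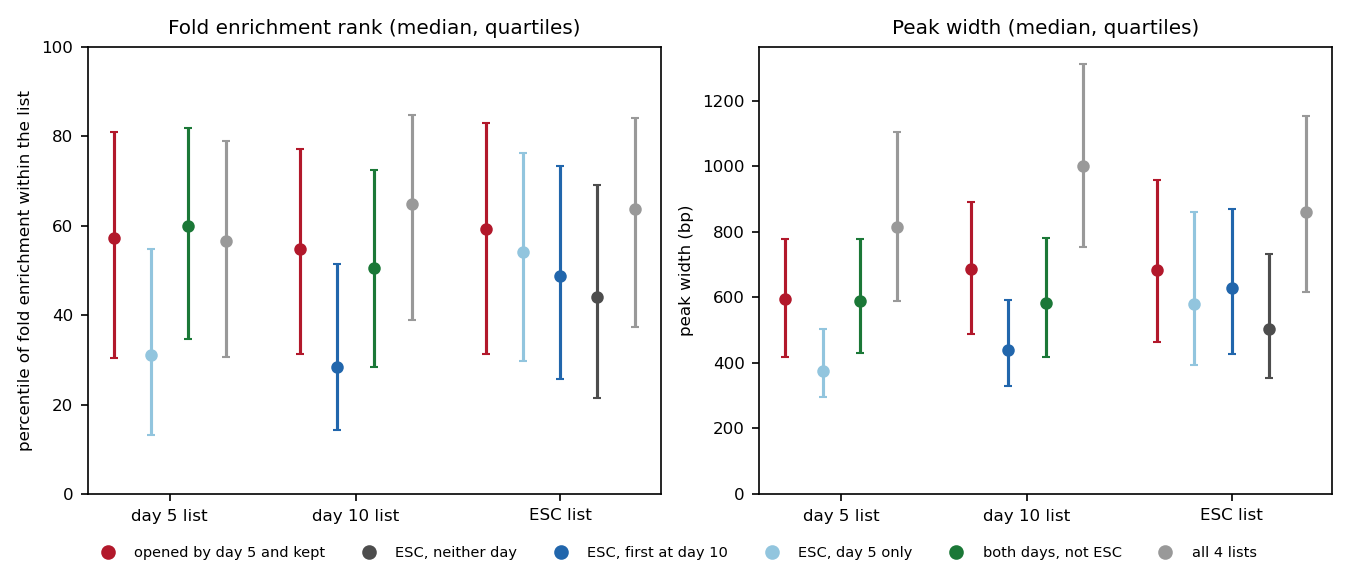
Percentile of fold enrichment within each list (left) and peak width in bp (right) for the classes of regions that hold a peak in that list, with points at the median and bars from the first to the third quartile over regions. The regions opened by day 5 and kept (red) have medians of 57.3, 54.9 and 59.3 on the left and 595, 687 and 682.5 bp on the right.

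The 3 peaks of a region lay over the same DNA in most cases. In 2208 regions (94.0%) the day 5, day 10 and ESC peaks shared at least 1 bp, with a median shared stretch of 387.5 bp. Among the 2341 regions with exactly 1 peak per list, the midpoint moved by a median of 66 bp from day 5 to day 10 and by 117.5 bp from day 10 to ESCs. Peaks were wider at day 10 than at day 5 in 64.7% of these regions, against 76.5% of 13753 regions open in all 4 lists. They were wider in ESCs than at day 10 in 52.3%, against 35.1% of those, and all of these widths can move with depth.

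The strongest regions, by mean percentile over the 3 lists, were assigned to Rusc2, Pdzph1, Plppr4, Hmgcll1, Gm10801, Slc5a7, 5730522E02Rik, Dach2, Plekhh2 and March1. The region whose closest protein-coding start site is that of Rusc2, 46920 bp away, lay in an intron of Atp8b5 (chr4:43334557-43335059) and had fold enrichments of 6.16 (day 5), 5.59 (day 10) and 5.66 (ESCs), an order kept in the values below. The intronic region of Dach2, a transcriptional cofactor gene on the X chromosome (chrX:113573568-113574275), had 6.41, 4.53 and 6.73, and its window held an octamer and a SOX word. The intronic region of March1, a ubiquitin ligase gene (chr8:66323111-66323975), had 6.53, 4.47 and 6.36. Of these 10 regions, 1 lay within 1 kb of a protein-coding start site, that of Gm10801. The window at Hmgcll1 was masked as repeat in 100% of its bases and that at Slc5a7 in 90.5%.

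The rule cut the regions at 2 edges. The nearest MEF peak was 411 bp away at Dcbld1, 412 bp at Cdkn1a, the gene of the cell cycle inhibitor p21, 413 bp at Thsd7a and 415 bp at Efna5. Just outside the limit, with a MEF peak close enough to be merged, were the regions of Mpp7 (387 bp), Stab2 (374 bp), Tubb2a (346 bp) and Sae1 (344 bp). The region near Cdkn1a had fold enrichments of 2.60, 2.69 and 3.22, and that near Sae1, which was left out, 6.70, 4.64 and 5.95. In all, 10 regions lay within 500 bp of a MEF peak and 22 were left out for a MEF peak within the merging distance. The median distance to a MEF peak was 11.2 kb, and 598 regions (25.4%) had one within 5 kb. The weakest of the 3 peaks had a −log10 q-value under 1.5 in 108 regions and of at least 2 in 1859.

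The regions were mostly distal. Of the 2350, 169 lay over an annotated start site, 105 between 1 bp and 1 kb from one, 431 between 1 and 5 kb, 1283 between 5 and 50 kb and 362 farther than 50 kb. The midpoint of the ESC peak fell in an exon in 7.02%, in an intron in 50.3% and between genes in 42.6%. By contrast, 78.4% of the regions open in all 4 lists lay over a start site.

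The share within 5 kb of a start site was 30.0% (28.2% to 31.9%). It was 29.6% for ESC regions open on neither day, a difference of 0.44 percentage points (95% Newcombe interval -1.47 to 2.41), which was not called at this depth. Within that distance, 7.19% (6.22% to 8.31%) lay over a start site, against 4.87% (4.61% to 5.14%) of that class, and 4.47% lay 1 bp to 1 kb away, against 6.68%. Distances were measured from the whole merged region, and wider regions reach a start site more easily. The median width was 947 bp here, against a median ESC peak width of 502 bp in that class. The part of width in these shares was not tested. With all lists cut to the same number of peaks by score the difference within 5 kb was 6.15 points (4.20 to 8.14) and was called. ESC regions first open at day 10 lay closer to genes: 36.3% were within 5 kb, so that the regions opened by day 5 were lower by 6.29 points (interval of the difference -9.53 to -3.08), with the lower share on 16 of 20 chromosomes. Regions open on both days but not in ESCs lay farther away, at 21.9%, a difference of 8.13 points (6.06 to 10.2) in the same direction on 20 of 20 chromosomes.

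**Figure D2:**
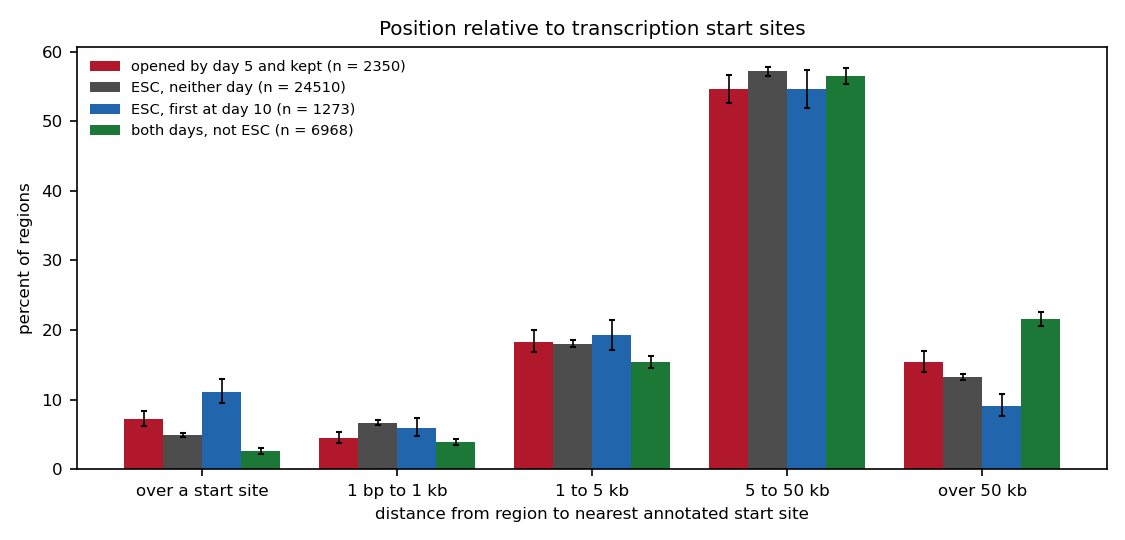
Percent of regions of 4 classes (y axis) by distance to the nearest annotated transcription start site (x axis), with 95% Wilson intervals as bars. Of the regions opened by day 5 and kept (red), 54.6% lay 5 to 50 kb from a start site, and 7.19% lay over one, against 11.2% of the ESC regions first open at day 10 (blue).

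Within 1 kb of a protein-coding start site lay 183 regions (7.79%). The strongest were those of Gm10801, Slc6a6, Ctnnd1, Pde7a, Gm10722, Crebbp, Rdh10, Htra1, Spef2 and Cpsf4l. The region over a start site of Slc6a6, the taurine transporter gene (chr6:91700842-91701809), had fold enrichments of 4.76, 4.99 and 4.89 and held a SOX and a KLF word. At Rdh10, a retinol dehydrogenase gene (chr1:16129889-16130729), the values were 5.22, 3.57 and 7.41, the highest being that of ESCs. At Crebbp, which encodes the histone acetyltransferase CBP (chr16:4095811-4096604), they were 5.80, 4.37 and 3.94, the highest being that of day 5. Ctnnd1, the gene of the cadherin partner p120-catenin, showed the same order, with 6.09, 4.86 and 4.10. Gm10801 and Gm10722 are predicted genes, and their windows were repeat-masked in 45% and 100% of bases. The part of repeats in these peaks was not tested. A region lay within 1 kb of a start site in 180 protein-coding genes, and 118 of these (65.6%, 58.4% to 72.1%) also had a MEF peak within 1 kb of an annotated start site, against 64.5% of all protein-coding genes. The share was 57.4% (55.0% to 59.8%) among 1614 genes with an ESC region open on neither day at a start site and 51.0% (43.1% to 58.9%) among 149 with one first open at day 10. The genes of these 3 classes had a median of 5 annotated start sites, against 3 over all protein-coding genes. The 65.6% and the 64.5% therefore compare unlike genes.

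The bases of the windows differed between the classes. In 200 bp centred on the ESC peak the mean GC content was 45.8% (SD 7.27, n = 2350). It was 47.5% in ESC regions open on neither day, a difference of -1.72 points (-2.03 to -1.41), and 48.7% in those first open at day 10, a difference of -2.92 (-3.43 to -2.41), each in the same direction on 20 of 20 chromosomes. The difference from regions open on neither day turned to 0.683 (0.304 to 1.06) when the lists were cut to equal size. Around the day 5 peak the GC content was 45.2%, against 40.8% in regions open on both days but not in ESCs, a difference of 4.37 (4.04 to 4.70). Repeats took 22.1% of bases, against 27.1% in regions open on neither day (difference -5.02, -6.24 to -3.80) and 18.4% in those first open at day 10 (difference 3.65, 1.82 to 5.49). Around the day 5 peak repeats took 21.4%, against 17.4% in regions open on both days but not in ESCs (difference 4.08, 2.88 to 5.29). Of the ESC windows, 374 (15.9%) were masked over at least 50% of their length.

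Matches to 13 motifs were then counted on both strands of the same 200 bp windows, 39 differences in 3 comparisons, without adjustment for their number. A difference was called where its 95% Newcombe interval excluded 0. The words were ATGCAAAT for the octamer, CCATTGT or CCTTTGT for SOX, CCACACCC, CCACGCCC, CCCCACCC or CCCCGCCC for KLF, TCAAGGTCA for ESRRB, TGACTCA for AP-1, ACATTCC for TEAD, TGTGGTT for RUNX, GCCNNNGGC for TFAP2, AACCNGGTT for GRHL, TTCCNGGAA for STAT and CACGTG for the E-box. CTCF and the composite were searched as longer consensus sequences. The composite can contain a SOX word, as at Flt3, and these matches overlap.

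SOX words were more frequent in the regions than in each of the 3 classes compared. They were found in 496 of 2350 windows, 21.1% (19.5% to 22.8%), against 7.21% of flanking windows 1 kb away. Of the ESC regions open on neither day 13.9% held one, a difference of 7.24 points (5.58 to 8.99) that was positive on 19 of 20 chromosomes. Of those first open at day 10 14.2% held one, a difference of 6.89 points (4.30 to 9.37), positive on 20 of 20. In windows at the day 5 peak the share was 22.6%, against 16.4% in regions open on both days but not in ESCs, a difference of 6.14 points (4.27 to 8.07). The first of these differences fell to 3.12 (1.58 to 4.74) with lists of equal size, and the last to 3.42 (1.49 to 5.42) in windows with little repeat and to 4.01 (2.21 to 5.88) with windows at the widest peak of any list, all still called. ESC regions open at day 5 only were not among the 3 classes. Of their 730 ESC windows 17.1% (14.6% to 20.0%) held a SOX word, against 21.1% (19.5% to 22.8%) of the regions kept. The interval of this difference was not computed. Around the ESC midpoint the SOX share was highest in the central bins, with 6.64% per 50 bp against a mean of 2.07% beyond 500 bp, while the ESC regions open on neither day reached 4.00%.

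KLF words were found in 12.3% of windows, against 5.45% of the flanks. This was higher than the 9.59% of ESC regions open on neither day, by 2.67 points (1.35 to 4.10), and lower than the 15.8% of ESC regions first open at day 10, by a difference of -3.53 points (-5.99 to -1.18). The first direction was seen on 14 of 20 chromosomes and the second on 13 of 20. The second difference was not called with lists of equal size (-1.28, -3.62 to 0.967), more than 5 kb from start sites (-1.83, -4.73 to 0.884) or with windows at the widest peak of any list (-2.26, -4.75 to 0.116). At the day 5 peak the KLF share was 15.4%, 3.62 points (2.01 to 5.31) above regions open on both days but not in ESCs. That difference was 1.85 points (0.321 to 3.46) with windows at the widest peak of any list. In the ESC windows of ESC regions open at day 5 only, a class not compared, the KLF share was 11.6% (9.52% to 14.2%). The KLF share of the same 2350 regions was 15.4% in the day 5 window, 14.9% in the day 10 window and 12.3% in the ESC window. The SOX share moved less, from 22.6% to 21.9% and 21.1%. The classes also differed in GC content, and its part in the KLF and TFAP2 values was not tested.

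The octamer was found in 3.79% of windows (3.09% to 4.64%), against 1.13% of the flanks. It was not called against regions open on neither day (0.66 points, -0.0728 to 1.54), those first open at day 10 (0.17, -1.19 to 1.41) or regions open on both days but not in ESCs (0.12, -0.796 to 1.14). The first of these was called in windows of 400 bp (1.29, 0.300 to 2.41), with little repeat (1.51, 0.665 to 2.51) and where the peaks shared at least 1 bp (0.77, 0.00552 to 1.68). The composite was in 0.213% of windows (0.0909% to 0.497%) and in none of the flanks. At the day 5 peak it was in 0.298%, against 0.0431% of regions open on both days but not in ESCs, a difference of 0.255 points (0.0801 to 0.572) that was not called among peaks above the list's median fold (0.177, -0.0171 to 0.610).

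ESRRB words went the other way. Only 9 windows held one, 0.383% (0.202% to 0.726%), a share close to the 0.404% of the flanks. In ESC regions open on neither day it was 1.80%, which makes a difference of -1.42 points (-1.67 to -1.04), with the lower share on 20 of 20 chromosomes. TEAD words were also below that class (4.68% against 6.30%, difference -1.62, -2.46 to -0.646), and so were TFAP2 words (5.49% against 6.68%, difference -1.19, -2.10 to -0.152). The TEAD difference was not called in windows with little repeat, and that of TFAP2 was lost in 5 of 12 alternative settings. Against the ESC regions first open at day 10, TFAP2 was lower by a difference of -2.21 points (-4.02 to -0.539), and ESRRB was not called (-0.324, -0.981 to 0.155). By chromosome this TFAP2 share was lower on 9 of 20 and higher on 10.

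**Figure D3:**
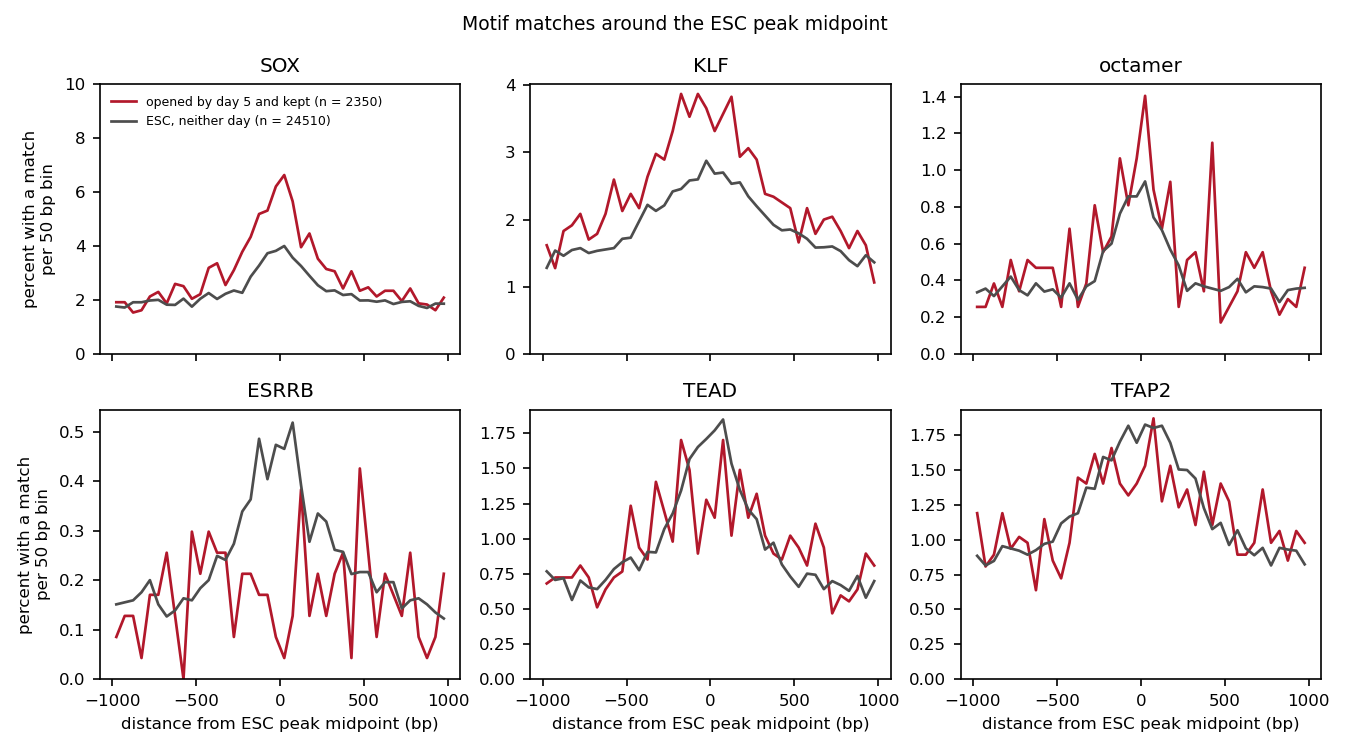
Percent of regions with a motif match per 50 bp bin (y axis) by distance from the ESC peak midpoint in bp (x axis), for the 2350 regions opened by day 5 and kept (red) and the 24510 ESC regions open on neither day (grey). SOX words rise to 6.64% in the centre of the red line and 4.00% in the grey, whereas ESRRB words average 0.469% in the 2 central bins of the grey line and 0.0638% (3 matches) in those of the red one, whose highest bin is 0.426% at 475 bp.

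AP-1 words, which mark open sites of fibroblasts, were in 3.62% of ESC windows and 5.02% of day 5 windows. The latter was below the 6.57% of regions open on both days but not in ESCs, a difference of -1.55 points (-2.56 to -0.442). CTCF, TFAP2, TEAD, E-box and ESRRB words were each more frequent than in that class, for example TFAP2 in 5.45% against 3.26% (2.19 points, 1.23 to 3.26) and CTCF in 0.638% against 0.100% (0.538 points, 0.265 to 0.953). The TEAD difference (1.20, 0.253 to 2.26) was not called in 5 of 12 alternative settings, that of ESRRB (0.282, 0.0535 to 0.644) in 3 and that of the E-box (0.778) in 3. RUNX and STAT words were called in none of the 3 comparisons. The GRHL word was in 0 of 2350 ESC windows, which allows a share of up to 0.128% when a count of 0 is read as at most 3 (the Wilson upper limit is 0.163%). Counted over the 13 motifs, 2 were higher and 3 lower than in ESC regions open on neither day, 1 higher and 2 lower than in those first open at day 10, and 8 higher and 1 lower than in regions open on both days but not in ESCs.

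**Figure D4:**
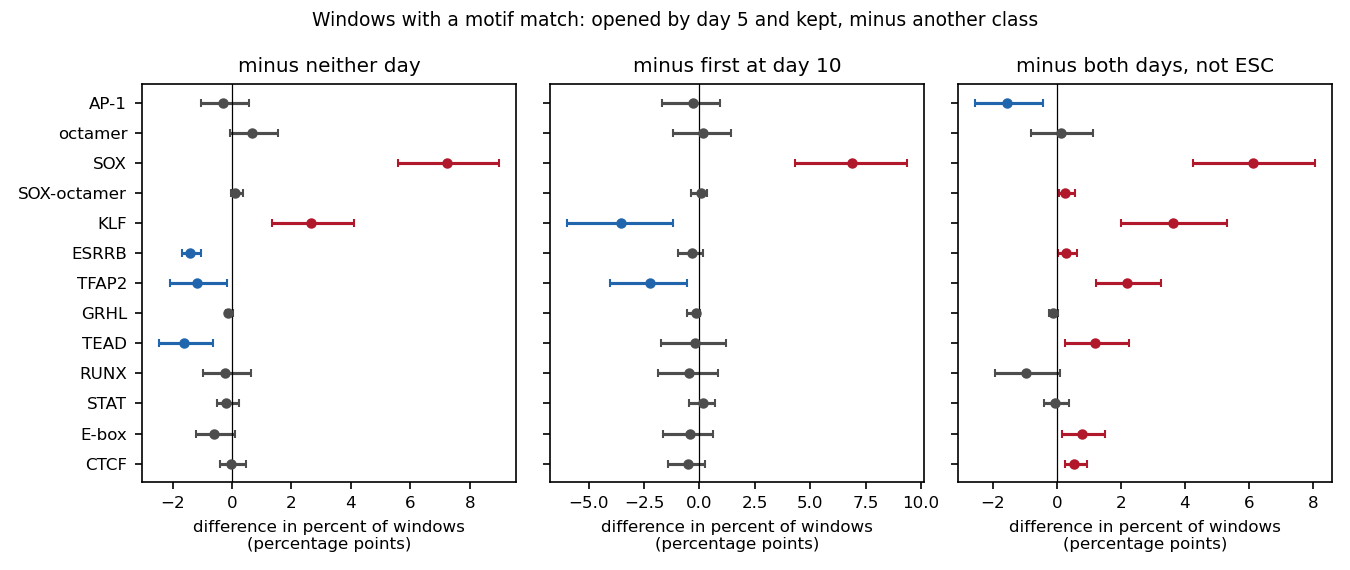
Difference in the percent of 200 bp windows with a match, in percentage points with 95% Newcombe intervals (x axis), for 13 motifs (y axis) and 3 comparison classes (panels). Red is higher, blue lower and grey not called, and SOX is the only motif that is higher in all 3 panels, by 7.24, 6.89 and 6.14 points.

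Most ESC windows held none of the words searched for OCT4, SOX2 and KLF4. These windows cover 200 bp of regions with a median width of 947 bp, and the rest of each region was not counted. An octamer, a SOX word or a composite was in 571 windows (24.3%), a KLF word in 288, and both kinds in 62 (2.64%). The other 1553 windows (66.1%) held neither kind. The share with at least 1 of these words was 33.9%, against 25.1% in ESC regions open on neither day, a difference of 8.85 points (6.88 to 10.9). Within 5 kb of a start site SOX words were in 18.6% of 705 windows and farther away in 22.2% of 1645, a difference of -3.61 (-7.01 to -0.000729) whose interval barely excluded 0.

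The genes around the regions were read against 8 lists. Of 21951 protein-coding genes, 2578 (11.7%) had such a region no more than 50 kb from a start site. Of the 15854 genes with any ESC region without a MEF peak in that distance, it was 16.3%. Over all lists, 26 of 117 genes had at least 1, with 32 regions among them. Counts of so few genes were not tested, and the lists differ from the background in how many ESC regions they have nearby.

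**Figure D5:**
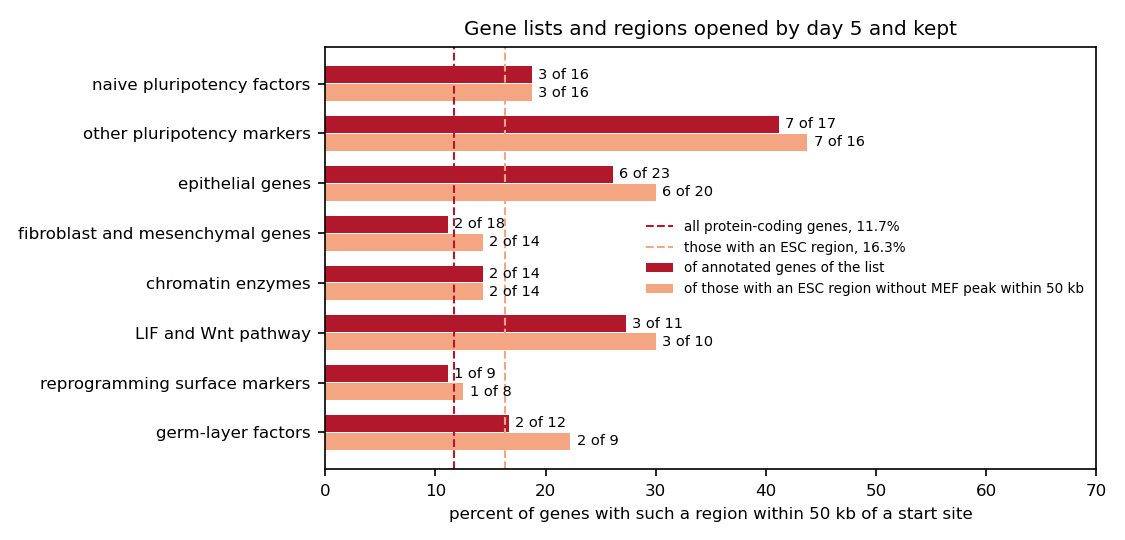
Percent of the genes of 8 lists with a region opened by day 5 and kept within 50 kb of a start site (x axis), of all annotated genes of the list (dark bars) and of those with any ESC region without a MEF peak in that distance (light bars). Counts stand beside the bars, and dashed lines give 11.7% and 16.3%, the shares over all protein-coding genes.

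Of the 16 naive pluripotency factors, 3 had a region nearby: Nanog, Tfcp2l1 and Pou5f1. The region of Nanog (chr6:122662561-122663797) lay 43692 bp upstream of it and 35808 bp downstream of Dppa3, and had fold enrichments of 3.48 at day 5, 2.83 at day 10 and 3.12 in ESCs. Tfcp2l1 had one 1266 bp upstream of a start site and 1034 bp from a MEF peak, with 3.18, 3.54 and 3.25, and one in an intron (chr1:118647849-118648612), with 2.75, 3.44 and 3.18. Together with 1 more they formed a cluster of 3 within 64.8 kb. Esrrb, Klf2, Klf4, Klf5, Sox2, Prdm14, Nr5a2 and Zfp42 were among the 13 without one. Esrrb had 11 ESC regions open on neither day within 50 kb and no peak at day 5 or day 10.

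The regions of Pou5f1 stood apart. That over its exons (chr17:35509238-35510444, 610 bp of exon) had fold enrichments of 1.96, 1.63 and 1.76, at percentiles 0.0166, 0.00284 and 0.00825 of the lists. That upstream (chr17:35502571-35505981), 933 bp from a MEF peak, had 1.75 and 2.00 at day 5 and day 10 and 3.07 in ESCs, where its −log10 q-value was 98.4. The cells at both days carried Pou5f1 in the retrovirus. By the labels, all groups but ESC replicate 1 carried a reporter with Pou5f1 sequence, while the study's methods call the ESCs used for ATAC-seq OG2. The ESC values appear to be those of replicate 1, which was stated nowhere. Reads of the added copies map to the gene, and their part in these peaks was not tested. Sox2, Klf4 and Myc had no such region within 50 kb.

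Of 17 other pluripotency markers, 7 had one, the highest share of the lists (41.2%): Dppa3, Tdh, Fgf4, Lefty1, Lefty2, Fbxo15 and Gdf3. Tdh encodes threonine dehydrogenase, an enzyme on which mouse ESCs depend. The region over an annotated start site inside this gene (chr14:63500157-63502146), at neither of its ends, had 4.33, 3.68 and 3.42. Its day 5 window held an octamer and a SOX word and its ESC window the KLF word printed above. The region over an annotated start site inside Gdf3, the gene of a TGF-beta family ligand, also reached neither end of its gene. It counted for Dppa3 too and had 4.14, 3.52 and 3.41. Lefty1 and Lefty2, Nodal inhibitors, shared the region with the octamer, 312 bp upstream of Lefty1 and 1810 bp from a MEF peak, with 3.17, 3.33 and 2.80. Fbxo15, an early marker of reprogramming, had the strongest day 5 value of this list, 5.82, with 3.93 at day 10 and 3.14 in ESCs. The region in the last part of Fgf4, a growth factor gene, lay wholly in an exon (chr7:144863892-144864791), 1569 bp from a MEF peak, with 2.99, 2.36 and 2.99.

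Of 23 epithelial genes, 6 had one: Cdh1, Krt8, Krt18, Dsp, Dsg2 and Rab25. Cdh1, the gene of E-cadherin, had its region in an intron (chr8:106631548-106633512), with 3.93, 3.06 and 2.64, the lowest being that of ESCs. Krt8 and Krt18, partner keratins, shared one in an intron of Krt8, 1458 bp from a MEF peak, with 3.10, 3.39 and 2.97. The region 41667 bp upstream of Dsp, the desmoplakin gene, had 4.32, 4.92 and 5.82, a mean percentile of 89.7. Dsg2 encodes a desmosomal cadherin and had 4.58, 3.13 and 3.62. Epcam, Esrp1, Grhl2 and Ocln had none.

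Among 14 chromatin enzymes Jarid2, a PRC2 cofactor gene, and Tet2 had regions, and Tet2 had 4. TET2 oxidises 5-methylcytosine. The strongest lay in an intron (chr3:133524116-133525436), with 5.85, 4.58 and 4.16, and held the SOX word printed above. The other intronic one had 3.84, 3.88 and 3.40, that upstream 3.99, 3.29 and 3.90, and that beyond the gene 3.50, 3.09 and 4.59 in a window masked over 100% of its bases. Of the LIF and Wnt genes 3 of 11 had one: Socs3, Tcf7l1 and Ctnnb1. Socs3 is a feedback inhibitor of LIF signalling, Tcf7l1 a repressor of pluripotency genes and Ctnnb1 the gene of beta-catenin. The region 5624 bp upstream of Tcf7l1 had 4.10, 3.26 and 3.88.

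Of 18 fibroblast and mesenchymal genes 2 had one (11.1%), Fn1 and Acta2, those of fibronectin and smooth muscle actin. The region 19427 bp upstream of Fn1 (chr1:71672627-71674096) had 5.06, 3.70 and 4.92. Of 9 surface markers only Alpl, the gene of tissue-nonspecific alkaline phosphatase, had one (3.95, 3.45 and 2.96), and of 12 germ-layer factors Otx2 and Nes did (16.7%).

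When each region was assigned to the closest protein-coding start site, 1872 genes had at least 1 and 1520 exactly 1. Lrig1, Cdh13, Tox, Tenm4, Tns3, Cdh8, Wdfy3 and Robo1 had 5 each and Adamtsl1 had 4. Cdh13 and Cdh8 encode cadherins, Tenm4 a synaptic adhesion protein and Robo1 an axon guidance receptor. The 5 regions of Lrig1, a regulator of growth factor receptors, lay 18471 to 149071 bp from its start site, and those of Cdh8 688130 bp or more away. Most regions stood alone: 398 (16.9%) had another within 50 kb, and 22 clusters held 3 or more, the largest being 4 regions at Nrp2 within 96.4 kb and 4 at Dym within 30.7 kb. By chromosome the regions made up between 6.72% (chromosome 9) and 9.13% (chromosome 6) of the ESC regions without a MEF peak. Chromosome Y, with 0 of 7, is left out of this range.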

How the data were processed

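ATAC-seq reads were mapped by the authors to mm10 with bowtie2 (version 2.2.0 in the submitters' processing notes, another in the methods), filtered on mapping quality (the labels and the methods give different limits) and freed of mitochondrial reads. The caller, its settings and whether read ends were shifted for the transposase were not given in the sources used here. The authors deposited 1 list per group of 2 libraries, in which a peak has a score, a fold enrichment (a ratio to background), a −log10 p-value (not used) and a −log10 q-value. The deposited score was 10 times the −log10 q-value to within 1. Peak names were those of replicate 1, so intervals look like replicate intersections whose fold belongs to the whole replicate 1 peak, which was stated nowhere. Depth was not given.

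The regions and gene lists were chosen with earlier results of these data known. Peaks within 400 bp were merged. Coordinates are GRCm38. Gene models were those of GENCODE release M21 (132666 start sites) and sequence and repeat masking from the RefSeq copy of GRCm38. Windows of 200 bp were placed at the midpoint of the widest ESC peak, or day 5 peak for regions not open in ESCs, with 2 flanking windows 1000 bp away. Shares carry Wilson intervals and differences Newcombe intervals, both at 95%. Differences in base composition carry intervals from the standard error. Chromosomes with at least 50 regions were compared one by one. Genes were named by rule: listed genes with a region within 50 kb, the 10 genes with most regions, and the 10 strongest regions, overall and within 1 kb of a protein-coding start site. Genes without a region are examples. Some items that the rule names are not reported here. Region merging, window placement, matching of the ESRRB word and the Newcombe interval were tested on simulated data with well separated regions. The other words, the other intervals and rare shares were not tested in this way. Analyses used Python 3.11.15, numpy 2.4.6 and pandas 2.3.3.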

Additional observations from a re-analysis of the deposited data

How the results depend on the processing

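The number of regions was 2315 and 2377 with merging at 0 and 1000 bp, 1985 with a −log10 q-value of at least 2, 2583 with lists of equal size (35226 peaks), 2208 where peaks shared 1 bp and 1752 with no MEF peak within 5 kb. Of 257 alternative values of called differences and counts, 228 kept their direction and call, or stayed within 1.5 times for counts. The cause of the other changes was not tested. SOX was higher in each comparison under each setting run, by 3.12 to 10.5 points against ESC regions open on neither day, and ESRRB lower than in that class. With lists of equal size, the TFAP2 difference from ESC regions open on neither day turned to 0.414, GC content to 0.683 and CTCF to 0.925. TFAP2 against that class was not called at −log10 q of at least 2 (-0.803), with no MEF peak within 5 kb (-1.06), over 5 kb from start sites (-1.20) or for peaks above the list's median fold, a setting added after seeing the data (-1.35). TEAD was not called in windows with little repeat (-1.09). Against ESC regions first open at day 10, KLF was not called with equal lists (-1.28), far from start sites (-1.83) or at the widest peak of any list (-2.26), and TFAP2 not at −log10 q of at least 2 (-1.80), with no MEF peak within 5 kb (-1.52), at the widest peak (-1.22) or above the median fold (-2.08). Against regions open on both days but not in ESCs, the composite was not called above the median fold (0.177), ESRRB not with merging at 1000 bp (0.188), no MEF peak within 5 kb (0.122) or little repeat (0.189), TEAD not at −log10 q of at least 2 (0.462), with equal lists (0.733), no MEF peak within 5 kb (1.05), little repeat (0.791) or above the median fold (0.482), and the E-box not with no MEF peak within 5 kb (0.409), 400 bp windows (0.854) or above the median fold (0.546). Of 272 alternative values of uncalled differences, 18 were called in the same direction and 1 in the other. Listed genes with a region numbered 15 at 10 kb, 37 at 100 kb and 38 with equal lists, against 26, and the share of all protein-coding genes was 3.62% at 10 kb and 19.8% at 100 kb. That share is not given here for equal lists, so the 38 is not a result about the listed genes.

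No paired analysis was possible because each group had 1 list for both libraries, and leaving out a replicate was not run for the same reason. There were no replicate values to set a difference against, and depth is unknown.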
